A study of Mus musculus with 22 samples.

Results

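Skipped-exon splicing was examined in genes of serine-threonine and lipid kinases, and of proteins that share their names, in mouse embryonic stem (ES) cells without DNA methyltransferases, depleted of heterochromatin protein 1 (HP1), or both. The genes were chosen by symbol: protein-coding genes whose names start with Mapk, Map2k, Map3k, Map4k, Cdk and a digit, Csnk, Stk, Nek, Pik3, Camk, or Clk and a digit, leaving out Stk31 and Clk4. A skipped-exon event is an exon with the neighbouring exon on either side, and it was assigned to a gene when its whole span lay inside that gene on the mm10 build. This gave 133 of 10873 events, over 128 distinct exons of 70 genes, and 86 further genes with a fitting symbol had no listed event. No measured value entered the choice. Of the 133 events, 75 were listed in all 7 libraries, 52 also had at least 20 informative reads in each of the 7, and 7 events were listed in 1 library only. Some symbols name partners rather than kinases: Mapkap1, Mapk8ip3, Mapk1ip1, Cdk5rap1, Cdk5rap2, Cdk5rap3, Pik3ip1, and the regulatory subunits Pik3r2, Pik3r3 and Csnk2b.

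The RNA samples fell into 7 groups of 2 replicates, and each group's replicates were pooled by the authors, leaving 1 library a group. TKO cells, which lack the DNA methyltransferase genes Dnmt1, Dnmt3a and Dnmt3b, received siRNA against HP1alpha (gene Cbx5), HP1beta (Cbx1) and HP1gamma (Cbx3) at 80, 80 and 120 nM, called here the TKO triple knock-down, or were left untransfected. WT cells, the R1 line, received the 3 siRNAs together at 60 nM each, called here the WT triple knock-down, or siRNA against HP1alpha, HP1beta or HP1gamma alone at 90 nM, or were left untransfected. All cells grew on gelatin with leukaemia inhibitory factor and no feeder layer, and transfected cells were taken after 48 h. TKO and WT are 1 line each, so loss of methylation and other differences between the lines cannot be told apart. The 2 untransfected groups were sequenced as 50-base single-end reads on a Genome Analyzer and the 5 knock-downs as 101-base paired-end reads on a HiSeq, and a control siRNA was not analysed here. HP1 depletion, transfection and sequencing platform therefore cannot be told apart wherever a transfected library is set against an untransfected one. With 1 pooled library per group there is no replicate check, and every test below compares libraries, not conditions. The study asked whether HP1 proteins have a part in how DNA methylation affects alternative splicing.

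Kinases of these families pass signals by phosphorylating serine and threonine residues, or lipids in the case of the phosphoinositide 3-kinases. In the mitogen-activated protein kinase (MAPK) cascade, Map4k and Map3k proteins stand upstream, Map2k proteins phosphorylate the Mapk proteins, and these act on transcription factors and other targets; signalling through such cascades is known to bear on whether ES cells self-renew or differentiate. Cyclin-dependent kinases (Cdk) drive the cell cycle and transcription, casein kinases (Csnk) act in Wnt signalling and the circadian clock, Nek proteins act at centrosomes and cilia, calcium/calmodulin kinases (Camk) read calcium, and Clk proteins phosphorylate SR splicing factors. Alternative exons in such genes are known to change activity, partner binding or transcript stability.

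The deposited inclusion level runs from 0, where all transcripts skip the exon, to 1, where all include it, and each level carries an interval from the authors' program whose confidence level is not stated. Reads that fit inclusion alone or skipping alone are called informative reads here. The libraries held 78 to 130 of the 133 events. Informative reads per listed kinase-gene event had a median of 137 in TKO and 128.5 in WT, and of 55 to 90 in the 5 knock-downs; the median interval width over all events was 0.09 in both untransfected libraries and 0.15 to 0.18 in the knock-downs. Summed event reads ranged from 4677236 in the WT triple knock-down to 25941844 in WT. Of 15 ES cell marker genes, 6 or 7 had a listed event in each library (among them Sall4, Klf4, Zfp42, Tdh, Dnmt3l and Tcl1 in all 7), with a summed level of 2617 to 3498 RPM (reads of each gene's most-read event relative to all event reads of its library); Pou5f1, Nanog and Sox2 had no listed event. Of 17 markers of feeder or differentiated cells, 1 to 3 had one (Fn1 in all 7, Pax6 in the TKO triple knock-down, TKO and WT, Sox17 in the TKO triple knock-down and TKO), summing to 331 to 442 RPM. The part of these markers in the results was not tested.

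Families were counted by symbol, so the MAPK cascade includes Mapkap1, Mapk8ip3 and Mapk1ip1, and the Cdk genes include Cdk5rap1, Cdk5rap2 and Cdk5rap3. The MAPK cascade held 52 of the events in 25 genes, the Camk genes 21 events in 7 genes, the Cdk genes 19 in 13, the Stk genes 10 in 8, the Csnk genes 9 in 5, the Nek genes 9 in 5, the Pik3 genes 8 in 5 and the Clk genes 5 in 2. Listing in all 7 libraries was frequent in the MAPK cascade (38 of 52), Cdk (14 of 19) and Clk (5 of 5) genes, and rare in the Camk (2 of 21) and Nek (1 of 9) genes. The skipped exons had a median length of 102 nucleotides, against 105 over all events. Their length was divisible by 3, so that skipping keeps the reading frame if the exon is coding, in 67 events (50.4%), against 46.6% of all events; 10 exons (7.52%) were at most 27 nucleotides long, against 4.12%. The median intron was 1223 nucleotides upstream and 1763 nucleotides downstream of the kinase-gene exons, against 1985 and 1949 nucleotides over all events. Levels between 0.1 and 0.9 in WT were found in 41.3% of the kinase-gene events listed there and in 38.1% of all events.

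**Figure D1:**
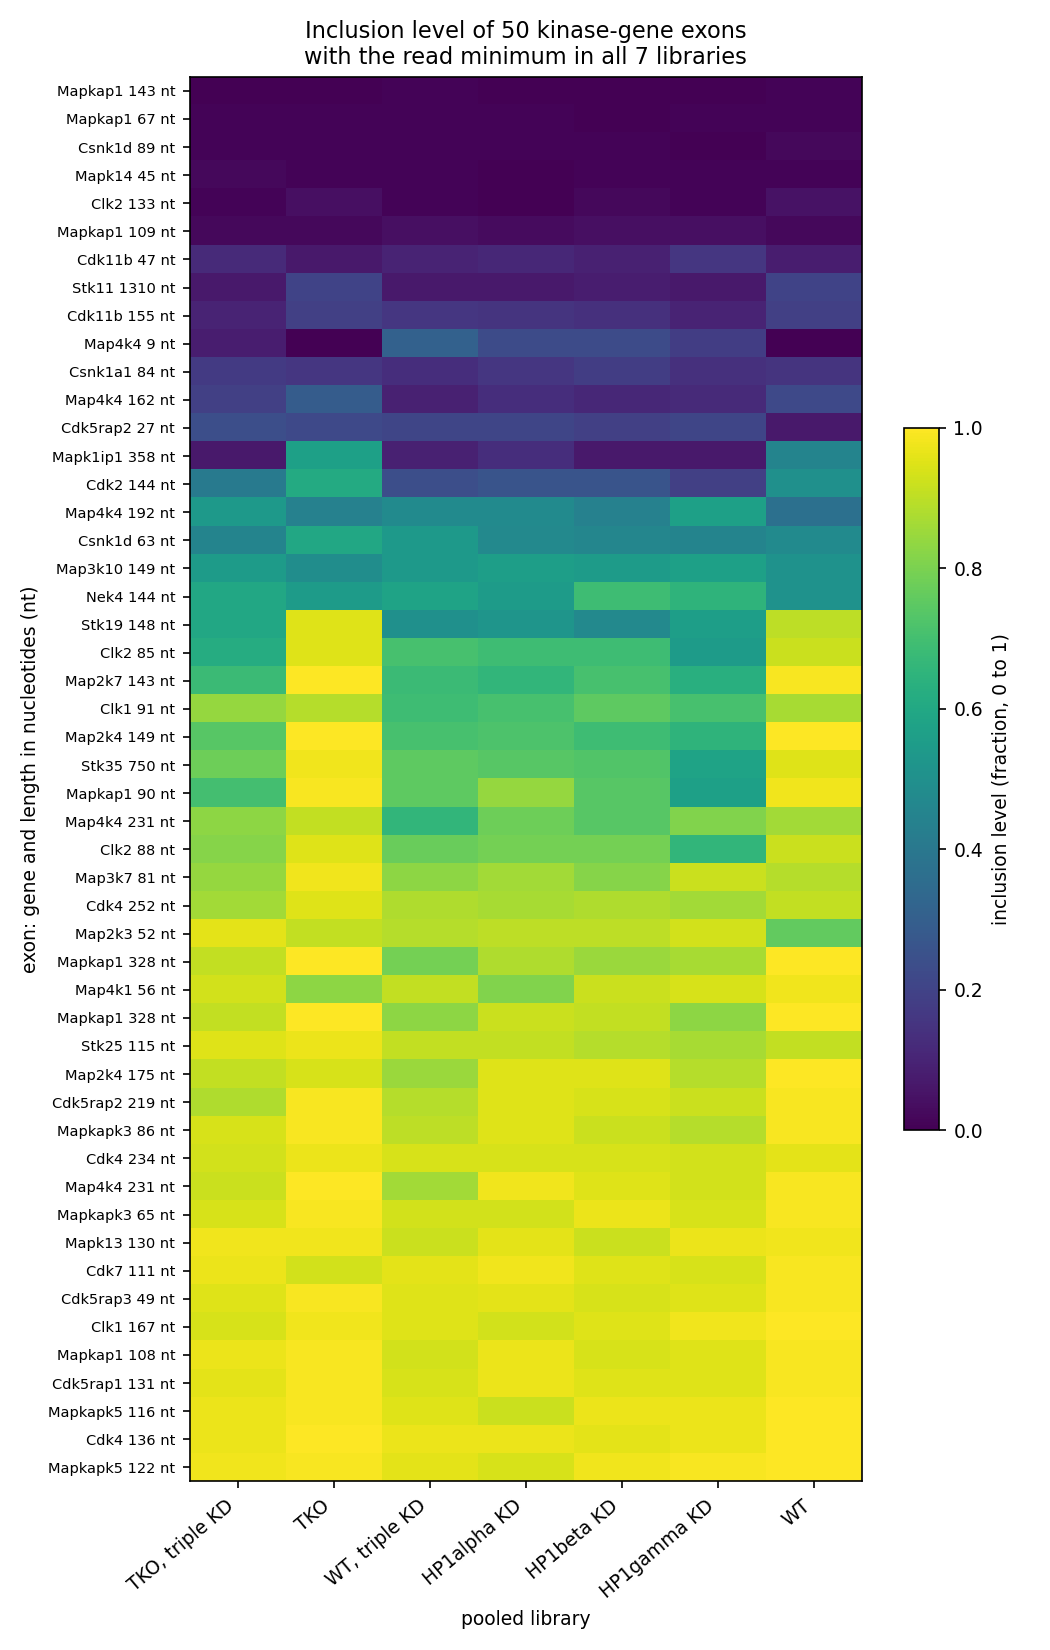
Inclusion level (colour, fraction from 0 to 1) of 50 of the 52 kinase-gene exons with at least 20 informative reads in every library (rows, gene and exon length in nucleotides, ordered by mean level) in the 7 pooled libraries (columns). Rows with the same label are the same exon with another neighbouring exon. Stk19, Map2k7, Map2k4 and Mapk1ip1 rows change colour between the knock-down columns and the TKO and WT columns, while the uppermost rows stay at 0 to 0.05 in every column.

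Most of these exons kept to a narrow range of levels. Among the 52 exons, the range over the 7 libraries had a median of 0.105, against 0.10 over the 4313 events measured as deeply, and reached 0.2 or more in 13 (25%), against 25.6%. Mapk14, the stress kinase p38alpha, included its 45-nucleotide exon at a level of 0.00 to 0.02 in every library. Csnk1a1, a casein kinase of the beta-catenin destruction complex, included its 84-nucleotide exon at 0.17 in the TKO triple knock-down, 0.16 in TKO, 0.13 in the WT triple knock-down, 0.16, 0.18 and 0.14 for HP1alpha, HP1beta and HP1gamma alone and 0.15 in WT. The 234-nucleotide exon of Cdk4, the kinase that pairs with D-type cyclins, stayed between 0.93 and 0.97, with 5051 to 9632 informative reads. Its 252-nucleotide exon stood at 0.86 to 0.88 in the knock-downs, 0.95 in TKO and 0.91 in WT. A 155-nucleotide exon of Cdk11b stood at 0.10 to 0.16 in the knock-downs and 0.19 in TKO and WT. Nek4 included a 144-nucleotide exon at 0.55 to 0.69 in the knock-downs, 0.55 in TKO and 0.51 in WT. Level and reads of Nek4 moved in opposite directions between TKO (95 and 2 reads) and the TKO triple knock-down (0.60, 58 and 16 reads). Map3k10, a mixed-lineage kinase, included its 149-nucleotide exon at 0.54 to 0.57 in the knock-downs (24 to 37 inclusion and 5 to 8 skipping reads), 0.49 in TKO (43 and 0 reads) and 0.51 in WT (38 and 0 reads). No skipping read of this Map3k10 exon was counted in either untransfected library, and the deposited levels there do not follow the shares of these reads. Against the untransfected line, its reads gave an adjusted p of 0.0310 for HP1beta, 0.0341 for the WT triple and 0.0317 for the TKO triple knock-down by Fisher's exact test. For HP1alpha it was at most 0.05, and for HP1gamma it was 0.214. Inclusion reads had a smaller share in the knock-downs than in the untransfected lines, while the deposited levels were higher there. Map2k4 had the most informative reads of the MAPK cascade at its 175-nucleotide exon, at 0.85 to 0.95 in the knock-downs, 0.94 in TKO and 1.00 in WT. Mapk14 and the neighbouring events of a gene named below beside its ruled event were chosen after their values were seen.

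TKO against WT, both untransfected and both of 50-base reads, asks what differs with the methyltransferases gone. Of 101 kinase-gene events tested, 6 had a higher inclusion level in TKO and 0 a lower one: Cdk2, Csnk1d, Map2k3, Map3k7, Cdk5rap2 and Nek1. An event was called when Fisher's exact test on its informative reads gave a Benjamini-Hochberg adjusted p of at most 0.05 over all 7695 events tested and the levels differed by at least 0.1. The 6 calls are 5.94% of the kinase-gene events, against 4.57% of all events tested, made up of 3.18% higher and 1.39% lower in TKO. At an unadjusted p under 0.05 there were 18 kinase-gene events (17.8%), against 16.2% of all events, and the median absolute difference in level was 0.02 in the kinase genes and 0.02 over all events. For each of the 6, the deposited intervals of TKO and WT did not overlap. A further 6 kinase-gene events (5.94%), against 4.37% of all events, met the adjusted p but not the size of 0.1, of which 2 were higher and 4 lower in TKO. The 2 higher were in an 81-nucleotide exon of Map3k7 and in Stk25; the 4 lower were in Map2k4, Cdk7, Stk40 and Pik3c2a. The Map2k4 exon of 175 nucleotides stood at 0.94 in TKO, from 1956 inclusion and 66 skipping reads, and 1.00 in WT, from 1363 and 0 (adjusted p = 3.04e-13, Fisher's exact test). Cdk7, a kinase that activates other Cdks, had a 111-nucleotide exon that stood at 0.93 in TKO, from 697 and 17 reads, and 0.99 in WT, from 850 and 0 (adjusted p = 5.05e-05, Fisher's exact test). The intervals of TKO and WT were apart for both, and these 6 events were named after their values were seen.

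In the MAPK cascade, Map2k3, which activates the p38 kinases, included its 52-nucleotide exon (chr11:60945511-60945562, plus strand, mm10) at 0.91 in TKO (interval 0.87 to 0.94) and 0.76 in WT (0.70 to 0.83). These levels rest on 464 inclusion and 16 skipping reads in TKO and 240 and 26 in WT (adjusted p = 0.00691, Fisher's exact test). WT was the lowest of all 7 libraries here, since the 5 knock-downs lay between 0.89 and 0.96. Map3k7, the kinase TAK1 that relays transforming growth factor beta and inflammatory signals, included a 137-nucleotide exon (chr4:31994874-31995010, plus strand) at 0.83 in TKO, from 206 inclusion and 4 skipping reads, and 0.68 in WT, from 192 and 25 (adjusted p = 0.00140, Fisher's exact test). An 81-nucleotide form of the same exon, which shares those skipping reads, stood at 0.98 in TKO and 0.89 in WT, a difference under the 0.1 required for a call.

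Among the cell cycle genes, Cdk2 included a 144-nucleotide exon (chr10:128699976-128700119, minus strand; the event also lies in the span of the gene Pmel) at 0.61 in TKO (0.56 to 0.66) and 0.50 in WT (0.45 to 0.55). Rodent Cdk2 is known to make a longer protein form beside the common one. The reads were 331 for inclusion and 70 for skipping in TKO and 245 and 105 in WT (adjusted p = 0.00140, Fisher's exact test). Cdk5rap2, a centrosomal protein that anchors microtubule nucleation, included a 27-nucleotide exon (chr4:70246948-70246974, minus strand) at 0.22 in TKO, from 36 inclusion and 87 skipping reads, and 0.07 in WT, from 8 and 66 (adjusted p = 0.0315, Fisher's exact test). As for Map2k3, WT was the lowest library: the 5 knock-downs lay between 0.19 and 0.24. None of the 4 knock-downs in WT cells differed from WT at the threshold for Cdk5rap2 (adjusted p = 0.110 to 0.317, Fisher's exact test) or for Map2k3 (adjusted p = 0.111 to 0.665).

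Csnk1d, the casein kinase 1 delta of the circadian clock, included a 63-nucleotide exon (chr11:120964948-120965010, minus strand) at 0.60 in TKO (0.56 to 0.64) and 0.48 in WT (0.44 to 0.53), with 479 inclusion and 210 skipping reads in TKO and 260 and 177 in WT (adjusted p = 0.0100, Fisher's exact test). Nek1, a kinase of primary cilia and DNA damage signalling, included an 84-nucleotide exon (chr8:61071751-61071834, plus strand) at 0.21 in TKO, from 56 inclusion and 102 skipping reads, and 0.09 in WT, from 11 and 63 (adjusted p = 0.0154, Fisher's exact test). This Nek1 event was listed in no knock-down library. None of the 8 Stk, 5 Pik3, 11 Camk and 5 Clk events tested was called between TKO and WT.

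The odds ratios are not centred on no difference: the median log2 odds ratio of inclusion in TKO over WT was 0.20 to 0.34 across 8 classes of exon length. An event entered these medians only with at least 5 reads per read class. With the expected odds ratio set to the median of the exon's length class, Cdk2 (adjusted p = 0.0495), Map2k3 (0.0364) and Map3k7 (0.00700) were still called, and Csnk1d (0.222), Cdk5rap2 (0.160) and Nek1 (0.0530) were not, all by exact tests. Under this setting 4.34% of all events were called.

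**Figure D2:**
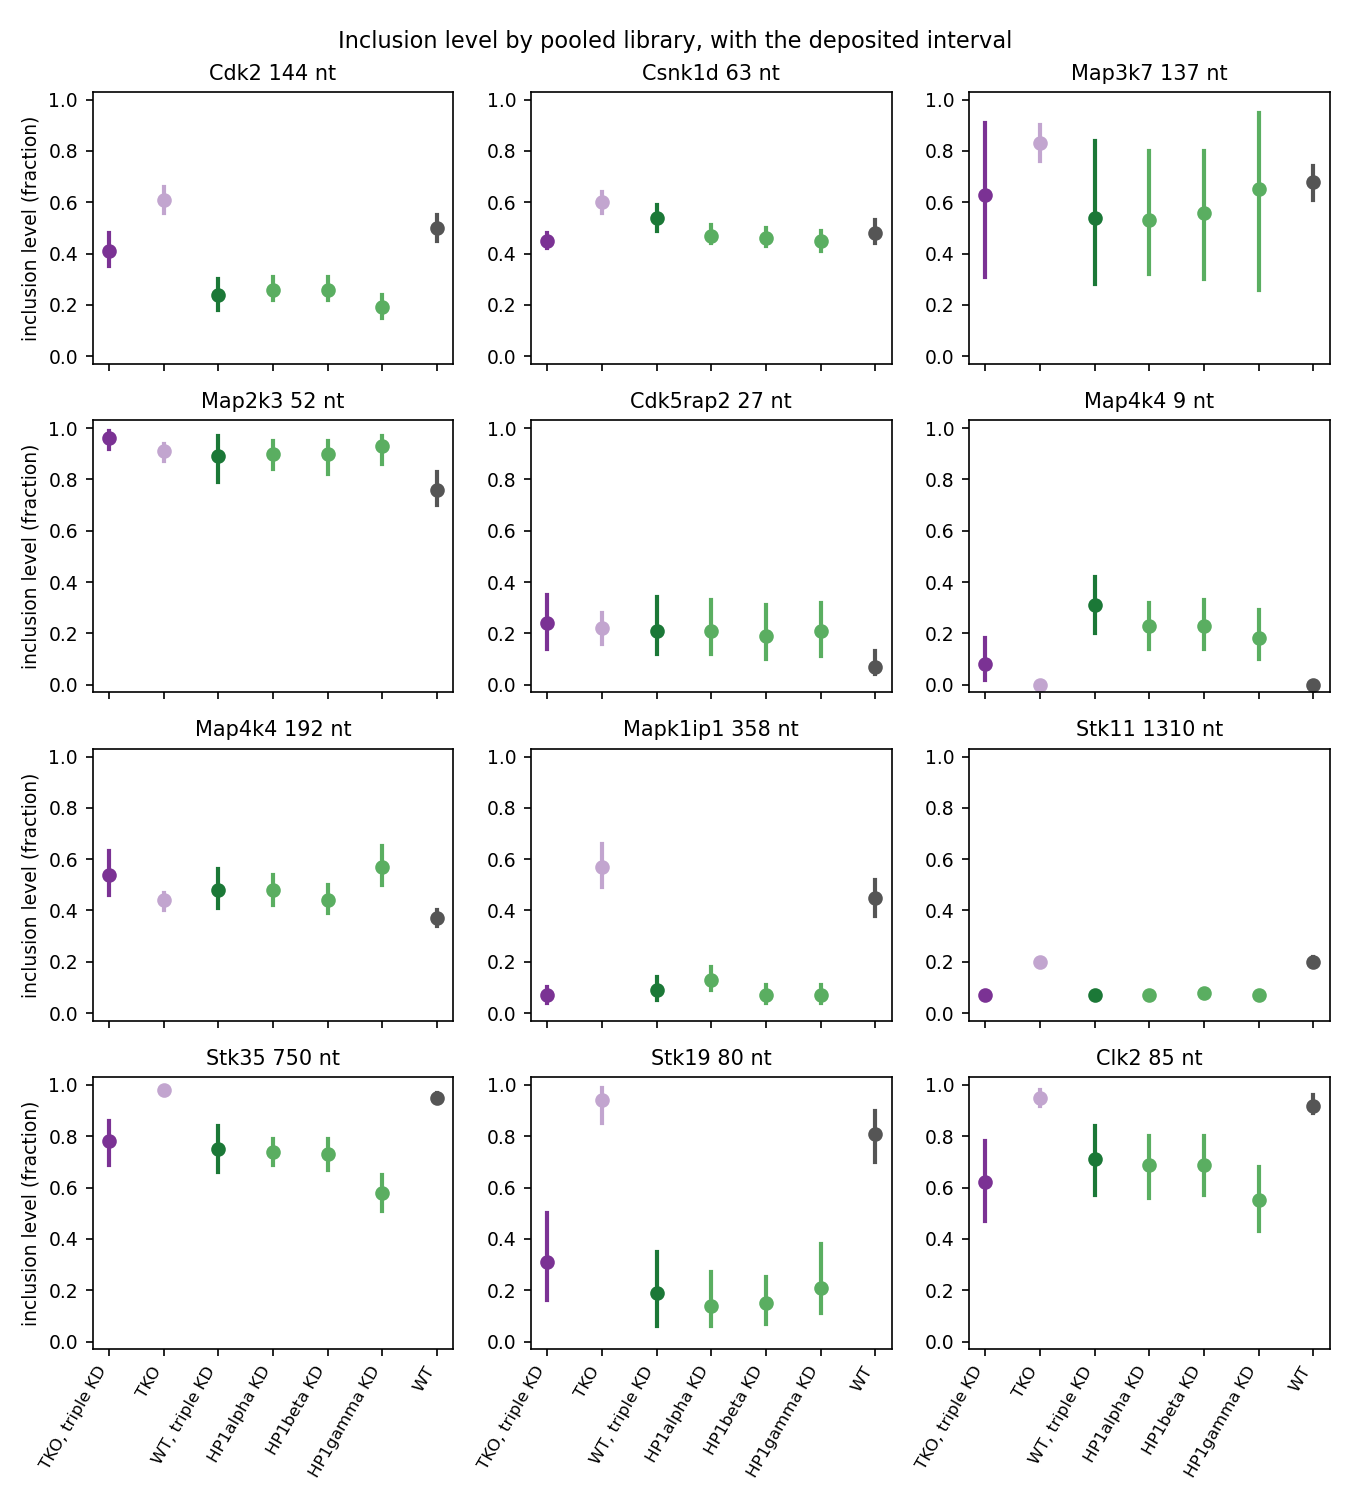
Inclusion level (points, fraction) with the deposited interval (bars) of 12 kinase-gene exons in the 7 pooled libraries; purple marks TKO cells, green the knock-downs in WT cells and grey untransfected WT. Cdk2 is higher in each TKO library than in the WT library of the same transfection, and the 9-nucleotide exon of Map4k4 stands at 0.00 in TKO and in WT.

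TKO against WT was measured again, with both lines under the triple knock-down and both of 101-base reads, at siRNA doses that differed between the lines. Of 55 kinase-gene events tested, 1 was called (1.82%), against 0.469% of all events, and 5 had an unadjusted p under 0.05 (9.09%), against 5.3% of all events. The event was Cdk2: 0.41 in the TKO triple knock-down (0.35 to 0.48) and 0.24 in the WT triple knock-down (0.18 to 0.30), from 184 inclusion and 74 skipping reads in TKO and 74 and 68 in WT cells (adjusted p = 0.0296, Fisher's exact test; 0.0517 with the expected odds ratio set by exon length, where 0.492% of all events were called). This pair of libraries shares none with the untransfected pair, and Cdk2 was higher in TKO cells in both. Of the 6 events called in untransfected cells, 4 were tested under knock-down, and 3 of these (75%) differed in the same direction, against 143 of 209 (68.4%) over all events. Map2k3 stood at 0.96 in the TKO triple knock-down and 0.89 in the WT triple knock-down, and Cdk5rap2 at 0.24 and 0.21, both with an adjusted p of 1 by Fisher's exact test. Csnk1d went the other way, at 0.45 in the TKO triple knock-down and 0.54 in the WT triple knock-down (adjusted p = 0.145, Fisher's exact test).

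**Figure D3:**
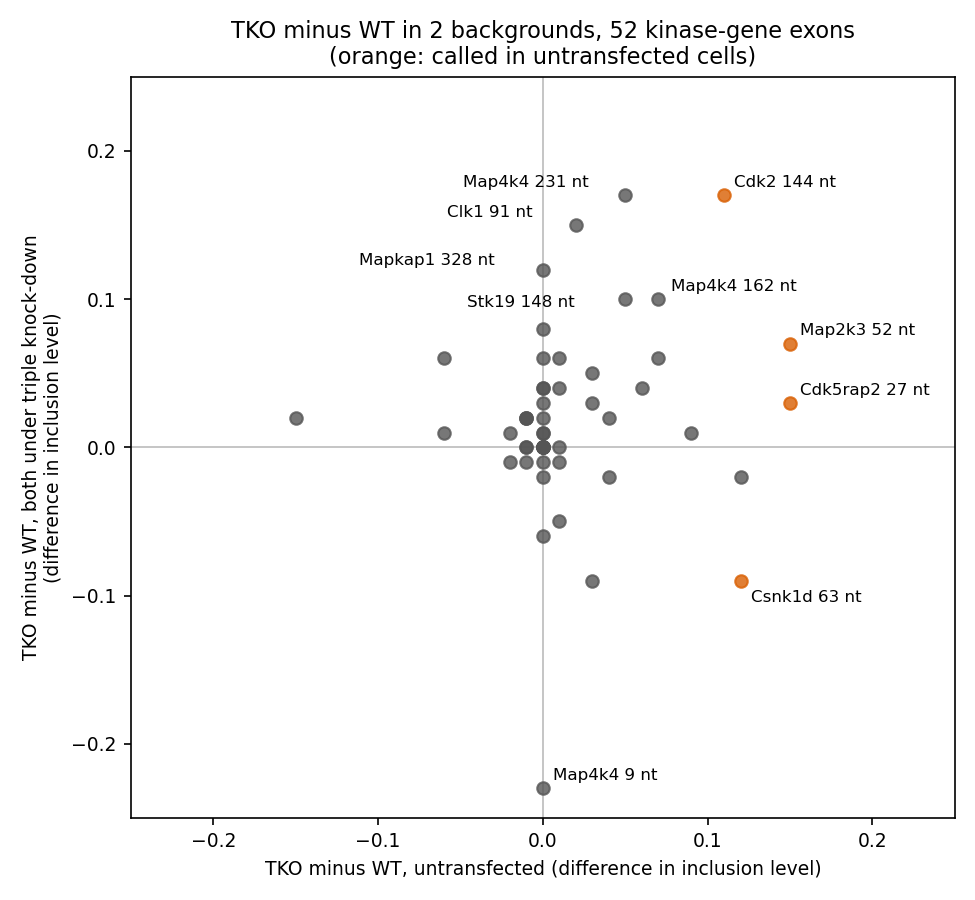
Difference in inclusion level, TKO minus WT, in untransfected cells (horizontal) and under the triple knock-down (vertical) for the 52 kinase-gene exons tested in both; orange marks exons called in untransfected cells. Cdk2 lies to the upper right at 0.11 and 0.17, Csnk1d to the lower right at 0.12 and -0.09, and the 9-nucleotide exon of Map4k4 at 0.00 and -0.23.

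Zelen's exact test, which asks whether the odds ratios of the 2 lines are equal, was used to see if the triple knock-down difference depended on the line. Of 52 kinase-gene events 1 was called, the 63-nucleotide exon of Csnk1d, against 2.69% of all 4344 events tested; 2 kinase-gene events had an unadjusted p under 0.05 (3.85%), against 7.9% of all events. In TKO cells the level was 0.45 in the triple knock-down, from 481 inclusion and 431 skipping reads, and 0.60 without it (adjusted p = 2.83e-10, Fisher's exact test). In WT cells it was 0.54 in the triple knock-down, from 231 and 138 reads, and 0.48 without it. The log2 odds ratio of inclusion was -1.03 in TKO and 0.19 in WT cells (adjusted p = 0.000340, Zelen's exact test). The single knock-downs stood at 0.47, 0.46 and 0.45 for HP1alpha, HP1beta and HP1gamma, close to the 0.48 of WT.

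Set against untransfected cells, the knock-down libraries had lower inclusion levels in most called kinase-gene events. For HP1alpha, 10 of 78 events were called, 2 higher and 8 lower (12.8%), against 11.8% of all events, 1.64% higher and 10.2% lower. For HP1beta, 10 of 72 were called, 1 higher and 9 lower (13.9%), against 11.8%, 1.92% higher and 9.91% lower. For HP1gamma, 12 of 62 were called, 2 higher and 10 lower (19.4%), against 11.4%, 1.6% higher and 9.84% lower. For the WT triple knock-down, 9 of 58 were called, 2 higher and 7 lower (15.5%), against 11.2%, 1.83% higher and 9.37% lower. For the TKO triple knock-down against TKO, 10 of 66 were called, 1 higher and 9 lower (15.2%), against 12.3%, 1.31% higher and 10.9% lower. The first 4 comparisons share the WT library, so their counts are not independent. Events of 1 gene that share an exon or skipping reads are not independent either, and each was counted. By gene, the calls of the 5 comparisons, in the order given, fell in 9 of 47, 7 of 41, 8 of 37, 5 of 33 and 9 of 39 genes tested. In the same order, 7, 7, 4, 4 and 6 further kinase-gene events met the adjusted p but not the size of 0.1. These are 8.97%, 9.72%, 6.45%, 6.9% and 9.09% of those tested, against 7.09%, 7.06%, 6.62%, 5.95% and 7.02% of all events. Across all 133 events, 106 were tested in at least 1 of the 10 comparisons made, and 22 events of 16 genes were called in at least 1 (20.8%), against 1401 of 8117 events (17.3%) over all genes.

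**Figure D4:**
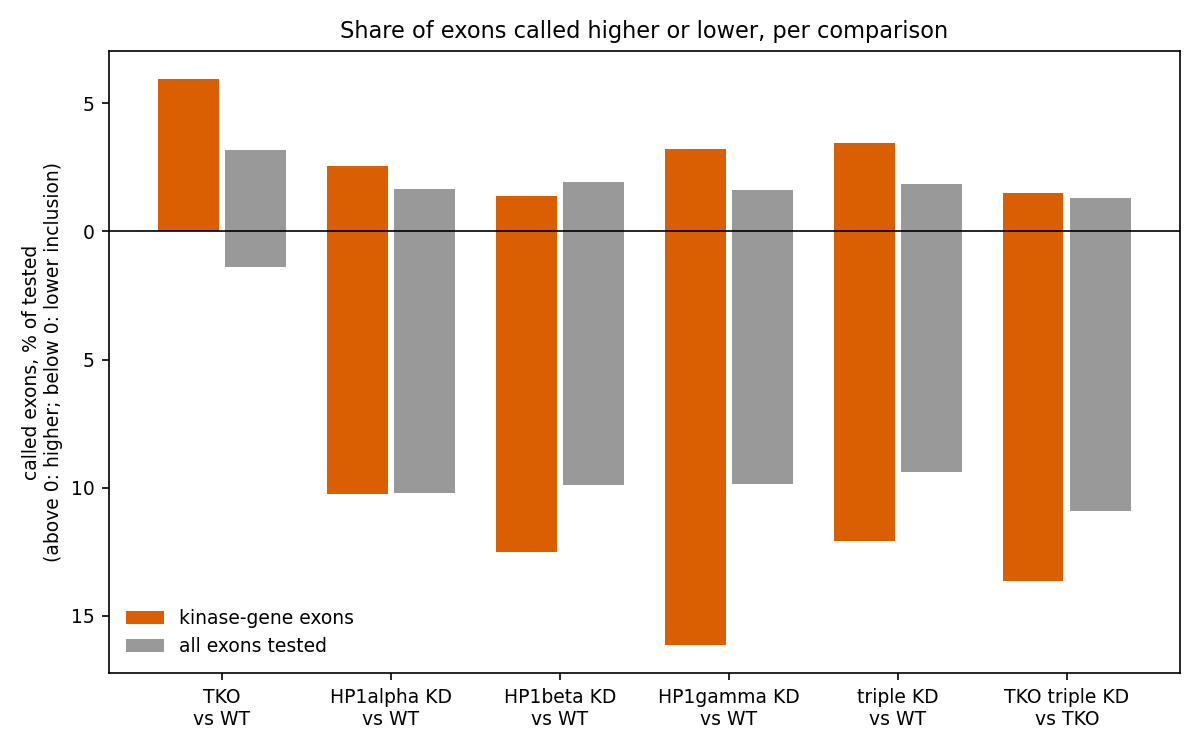
Share of tested exons called higher (above 0) or lower (below 0) in inclusion level in 6 comparisons, each against the untransfected library of the same line except TKO against WT; orange bars are kinase-gene exons and grey bars all exons tested. TKO against WT has no lower kinase-gene exon, and in the 5 knock-down comparisons the lower bars reach further than the higher ones for both kinds.

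Levels also separated the transfected from the untransfected libraries. Of the 52 exons measured deeply in all 7 libraries, 31 had levels in the 5 knock-downs that were all above or all below those of both untransfected libraries (59.6%), against 58% of all such events; 28 were lower in the knock-downs and 3 higher. The share in the kinase genes is near that of all events. The median log2 odds ratio of inclusion, knock-down over untransfected, ran from -1.12 to -0.0019 over the length classes in WT cells and from -1.30 to -0.27 in TKO cells. With the expected odds ratio set by length class, the HP1alpha comparison kept 6 of its 10 calls, HP1beta 5 of 10, HP1gamma 6 of 12 while gaining Map2k3, the WT triple knock-down 4 of 9 and the TKO triple knock-down 5 of 10. The called kinase-gene events, higher and lower, were then 2 and 4 for HP1alpha, 1 and 4 for HP1beta, 3 and 4 for HP1gamma, 2 and 2 for the WT triple knock-down and 1 and 4 for the TKO triple knock-down. Under this setting 8.99%, 8.67%, 8.62%, 7.99% and 8.56% of all events were called in these comparisons, in the same order.

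In the MAPK cascade, Map4k4, an upstream kinase of the JNK pathway, held 6 events and differed in several of them. Its 9-nucleotide exon (chr1:40008331-40008339, plus strand) stood at 0.08 in the TKO triple knock-down, from 2 inclusion and 28 skipping reads, and 0.00 in TKO, from 0 and 229. It stood at 0.31 in the WT triple knock-down (18 and 36 reads), 0.23, 0.23 and 0.18 for HP1alpha, HP1beta and HP1gamma alone (20 and 58, 16 and 44, 11 and 43 reads), and 0.00 in WT (0 and 257 reads). No inclusion read was seen in either untransfected library; a count of 0 allows a share of inclusion reads of up to 1.31% in TKO and 1.17% in WT, for counting error only. The 4 knock-downs in WT cells were called higher than WT, with adjusted p from 7.84e-14 to 4.11e-08 by Fisher's exact test, and remained so with the expected odds ratio set by length class. The TKO triple knock-down was not called against TKO (adjusted p = 0.0644) nor against the WT triple knock-down (adjusted p = 0.344), both by Fisher's exact test. Read length, 101 bases in the libraries that hold reads of this exon and 50 bases in those that do not, cannot be told apart from transfection and HP1 depletion here.

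The 192-nucleotide exon of Map4k4 (chr1:40011650-40011841, plus strand) stood at 0.54 in the TKO triple knock-down, with 229 inclusion and 32 skipping reads, and 0.44 in TKO, with 397 and 153. It stood at 0.48 in the WT triple knock-down, 0.48, 0.44 and 0.57 for HP1alpha, HP1beta and HP1gamma alone and 0.37 in WT. The levels were higher than in the untransfected line in the TKO triple (adjusted p = 6.67e-06), WT triple (6.94e-05), HP1alpha (2.06e-07) and HP1gamma (1.77e-09) knock-downs by Fisher's exact test, while the HP1beta difference of 0.07 was under the size required. All 4 calls remained with the expected odds ratio set by length class, though the deposited intervals overlapped in TKO cells (0.46 to 0.63 in the TKO triple knock-down and 0.40 to 0.47 in TKO). Its 162-nucleotide exon moved the other way, at 0.09 in the WT triple knock-down, 0.13, 0.11 and 0.12 for HP1alpha, HP1beta and HP1gamma alone and 0.22 in WT; it was called lower for the WT triple, HP1beta and HP1gamma knock-downs (adjusted p = 2.21e-05, 0.00104 and 0.00108, Fisher's exact test). Those 3 calls were lost when the expected odds ratio was set by length class. Joined to another downstream exon, the same 162-nucleotide exon was also called lower in the WT triple knock-down, at 0.09 against 0.21 in WT (adjusted p = 0.0333, Fisher's exact test), again not with the length class setting.

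Other genes near the cascade showed lower levels. Mapk1ip1, a partner protein and not a kinase, included a 358-nucleotide exon (chr7:138840577-138840934, minus strand) at 0.07 in the TKO triple knock-down, from 18 inclusion and 37 skipping reads, and 0.57 in TKO, from 139 and 9. It stood at 0.09 in the WT triple knock-down, 0.13, 0.07 and 0.07 for HP1alpha, HP1beta and HP1gamma alone and 0.45 in WT, where 138 inclusion and 14 skipping reads were counted. All 5 knock-downs lay far below both untransfected libraries, and the gap of 0.32 between the groups was the widest of the 52 exons. Each of the 5 comparisons was called (adjusted p from 5.64e-21 to 1.24e-07, Fisher's exact test), and each call remained with the expected odds ratio set by length class. Map3k4, which relays stress signals to p38 and JNK, included a 156-nucleotide exon (chr17:12242650-12242805, minus strand) at 0.49 in the TKO triple knock-down and 0.47 in TKO, and at 0.11, 0.18 and 0.17 for HP1alpha, HP1beta and HP1gamma alone and 0.56 in WT. The HP1alpha and HP1gamma knock-downs were called lower than WT (adjusted p = 0.000426 and 0.0292, Fisher's exact test), neither with the length class setting. The event was not listed in the WT triple knock-down, so its dependence on the cell line was not tested.

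Mapkap1, the Sin1 subunit of the second mTOR complex, had lower levels at 2 exons. Its 90-nucleotide exon (chr2:34435133-34435222, plus strand) stood at 0.70 in the TKO triple knock-down and 0.99 in TKO, and at 0.75 in the WT triple knock-down, 0.84, 0.74 and 0.57 for HP1alpha, HP1beta and HP1gamma alone and 0.98 in WT. It was called lower in all but the HP1alpha knock-down, which had 37 inclusion and 0 skipping reads; adjusted p ran from 0.00260 to 0.0479 by Fisher's exact test, and the calls for the 2 triple knock-downs were lost with the length class setting, that in WT cells also at a read minimum of 10 (adjusted p = 0.0506). Its 328-nucleotide exon (chr2:34432003-34432330, plus strand) stood at 0.79 in the WT triple knock-down, 0.88, 0.85 and 0.87 for HP1alpha, HP1beta and HP1gamma alone and 1.00 in WT, and each of the 4 was called lower (adjusted p from 1.98e-05 to 0.0329, Fisher's exact test). The HP1gamma call was lost with the length class setting. In TKO cells this exon stood at 0.91 in the triple knock-down and 1.00 in TKO, a difference under the size required (adjusted p = 0.0191, Fisher's exact test). Joined to another neighbouring exon, the 328-nucleotide exon had no skipping read in any library and was called in no comparison. Its levels were then 0.83 in the WT triple knock-down, 0.92, 0.91 and 0.83 for HP1alpha, HP1beta and HP1gamma alone and 1.00 in WT. The HP1alpha knock-down had 2 further calls: Map3k12, a neuronal mixed-lineage kinase, at 0.19 against 0.31 in WT for its 136-nucleotide exon (adjusted p = 0.0165; not with the length class setting, and with overlapping intervals), and Map4k1, a kinase known from blood cells, at 0.81 against 0.98 in WT for its 56-nucleotide exon (adjusted p = 0.0117), both by Fisher's exact test. The Map3k12 exon also stood at 0.19 for HP1beta, from 11 inclusion and 8 skipping reads, too few to test. The Map4k1 reads were 47 for inclusion and 5 for skipping with HP1alpha depleted and 129 and 0 in WT. Map4k1 stood at 0.92 for HP1beta, 0.94 for HP1gamma and 0.91 in the WT triple knock-down, without a call. Untransfected TKO stood at 0.83 for this exon, from 69 and 0 reads.

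Cdk2 was lower in every knock-down than in its untransfected line. Its level was 0.41 in the TKO triple knock-down and 0.61 in TKO, and 0.24 in the WT triple knock-down, 0.26, 0.26 and 0.19 for HP1alpha, HP1beta and HP1gamma alone and 0.50 in WT. All 5 differences were called (adjusted p from 6.48e-06 to 0.00700, Fisher's exact test) and none with the length class setting (adjusted p from 0.0999 to 1). Stk11, the tumour suppressor kinase LKB1, was called in the same 5 comparisons: a 1310-nucleotide exon (chr10:80128391-80129700, plus strand) stood at 0.07 in the TKO triple knock-down and 0.20 in TKO, and at 0.07, 0.07, 0.08 and 0.07 in the WT triple, HP1alpha, HP1beta and HP1gamma knock-downs and 0.20 in WT. Its reads were 498 for inclusion and 526 for skipping in the TKO triple knock-down and 536 and 226 in TKO. All 5 were called lower (adjusted p from 1.42e-18 to 4.58e-12, Fisher's exact test), and none with the length class setting (adjusted p from 0.313 to 1).

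Stk35, Stk19 and Clk2 also had events called lower in knock-downs. Stk35, a nuclear kinase, included a 750-nucleotide exon (chr2:129810488-129811237, plus strand) at 0.78 in the TKO triple knock-down and 0.98 in TKO, and at 0.75 in the WT triple knock-down, 0.74, 0.73 and 0.58 for HP1alpha, HP1beta and HP1gamma alone and 0.95 in WT. It was called in all but the WT triple knock-down (adjusted p = 0.376 there, from 209 inclusion and 8 skipping reads, and 2.04e-08 to 0.000376 in the others, Fisher's exact test); the HP1beta call was lost with the length class setting. Stk19 had an 80-nucleotide exon (chr17:34824582-34824661, minus strand) at 0.31 in the TKO triple knock-down, from 14 inclusion and 6 skipping reads, and 0.94 in TKO, from 55 and 0. It stood at 0.19 in the WT triple knock-down, 0.14, 0.15 and 0.21 for HP1alpha, HP1beta and HP1gamma alone and 0.81 in WT, from 69 and 7 reads. Only the TKO triple and HP1beta knock-downs reached the 20 reads needed, and both were called lower (adjusted p = 0.00165 and 7.12e-05, Fisher's exact test), also with the length class setting. A 148-nucleotide form that shares the skipping reads stood at 0.60 in the TKO triple knock-down and 0.95 in TKO, and at 0.47 to 0.56 in the knock-downs of WT cells and 0.90 in WT, and was called for the same 2 knock-downs (adjusted p = 0.0200 and 0.00899, Fisher's exact test), neither with the length class setting.

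Clk2, which phosphorylates SR proteins, had 2 forms of an exon that differ by 3 nucleotides at one end and share their skipping reads. The 85-nucleotide form (chr3:89169618-89169702, plus strand; the event also lies in the span of the predicted gene Gm45927) stood at 0.62 in the TKO triple knock-down and 0.95 in TKO, and at 0.71 in the WT triple knock-down, 0.69, 0.69 and 0.55 for HP1alpha, HP1beta and HP1gamma alone and 0.92 in WT. The HP1gamma and TKO triple knock-downs were called lower (adjusted p = 0.000136 and 0.0239, Fisher's exact test), the second not with the length class setting. HP1beta missed the threshold narrowly (adjusted p = 0.0507, Fisher's exact test). The 88-nucleotide form was called for HP1gamma, at 0.66 against 0.92 in WT (adjusted p = 0.00348, Fisher's exact test; not with the length class setting). Clk1 had a 91-nucleotide exon at 0.84 in the TKO triple knock-down and 0.89 in TKO, and at 0.69 in the WT triple knock-down, 0.71, 0.75 and 0.71 for HP1alpha, HP1beta and HP1gamma alone and 0.87 in WT, with no call in any comparison. Its 167-nucleotide exon stood at 0.93 to 0.98 in the knock-downs, 0.98 in TKO and 1.00 in WT, also without a call. Camk1, the most-read Camk gene, included an 88-nucleotide exon at 0.95 in the TKO triple knock-down and 0.99 in TKO, with no skipping read in either. No Pik3, Camk or Nek event was called in a knock-down comparison, where 1 to 4 Pik3, 0 to 5 Camk and 1 to 3 Nek events were tested. The 209-nucleotide exon of Pik3r2 stood at 0.01 to 0.02 in the knock-downs, 0.10 in TKO and 0.05 in WT. Each knock-down of WT cells met the adjusted p there but not the size. For HP1beta, 3 inclusion and 119 skipping reads stood against 8 and 17 in WT (adjusted p = 0.000317, Fisher's exact test). The TKO triple knock-down had 3 and 112 reads and TKO 12 and 1, too few in TKO to test.

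Some levels moved with no skipping read at all, and such events cannot be called by a test on informative reads. The 149-nucleotide exon of Map2k4, which activates JNK, stood at 0.74 in the TKO triple knock-down, with 49 inclusion reads, and 1.00 in TKO, with 616. It stood at 0.71, 0.72, 0.69 and 0.65 in the WT triple, HP1alpha, HP1beta and HP1gamma knock-downs, with 31 to 54 inclusion reads, and at 1.00 in WT, with 390, and no skipping read was counted in any library. Map2k7, the other JNK activator, included a 143-nucleotide exon at 0.63 to 0.71 in the knock-downs, with 22 to 47 inclusion and 0 skipping reads. It stood at 1.00 in TKO and at 0.99 in WT, where 398 inclusion reads and 1 skipping read were counted. A 116-nucleotide exon of Map3k7 stood at 0.29 in the TKO triple knock-down and 0.98 in TKO. Its level was 0.49, 0.60, 0.49 and 0.43 in the WT triple, HP1alpha, HP1beta and HP1gamma knock-downs and 0.99 in WT. This Map3k7 exon had 0 skipping reads throughout. In the WT triple knock-down against WT, 11 tested kinase-gene events had no skipping read in either library, and 5 of them (45.5%) differed in level by at least 0.1, all lower, against 29.9% of 1370 such events overall. For HP1alpha these were 4 of 16 (25%), against 23.6%, and for HP1beta 4 of 9 (44.4%), against 26.5%. For HP1gamma they were 5 of 10 (50%), against 26.3%, and for the TKO triple knock-down 7 of 14 (50%), against 26.5%. All of these were lower. In TKO against WT, both untransfected, 6 of 32 (18.8%) differed by as much, 1 of them lower, against 10.2%. How reads that fit both forms entered these levels was not examined, and the levels are given as deposited.

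Against each other, the single knock-downs differed little. None of 72 kinase-gene events was called between HP1alpha and HP1beta, none of 64 between HP1alpha and HP1gamma and none of 63 between HP1beta and HP1gamma, against 0.0171%, 0% and 0.019% of all events; at an unadjusted p under 0.05 there were 2, 2 and 1 (2.78%, 3.12% and 1.59%), against 2.57%, 2.77% and 2.64% of all events. Over the 52 deeply measured exons, the spread of the 3 single knock-downs had a median of 0.04 and was at most 0.05 in 34 exons. The widest was the 90-nucleotide exon of Mapkap1 at 0.27, whose HP1gamma level of 0.57 (interval 0.38 to 0.75) overlapped the 0.84 of HP1alpha (0.63 to 0.97), followed by Stk35 at 0.16. For Stk35 the HP1gamma level of 0.58 (0.51 to 0.65) lay below the 0.74 of HP1alpha (0.69 to 0.79), with intervals apart and no call. The informative reads of Stk35 did not show this difference. They were 514 for inclusion and 47 for skipping for HP1alpha, a share of 0.916, and 238 and 23 for HP1gamma, 0.912 (unadjusted p = 0.893, Fisher's exact test). The Mapkap1 levels rest on 37 inclusion and 0 skipping reads for HP1alpha and 27 and 5 for HP1gamma (adjusted p = 1, Fisher's exact test).

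Event reads were also compared between TKO and WT, counting all reads over an event, whether or not they tell inclusion from skipping. Reads that fit both forms, and reads that fit neither, are part of this count. Taking the RPM of each gene's most-read event, 4 of 65 kinase genes differed at least 2-fold between TKO and WT, 3 higher and 1 lower, against 7.01% of 4792 genes; the median ratio was 1.04 in the kinase genes and 1.09 over all genes. Camk2b, a calcium/calmodulin kinase best known from neurons, had 1017 reads in TKO and 378 in WT, a ratio of 2.77 (95% counting interval 2.46 to 3.13). Map3k5, the stress kinase ASK1, had 1158 reads in TKO and 478 in WT, a ratio of 2.49 (2.24 to 2.78), and Nek1 1101 in TKO and 493 in WT, a ratio of 2.30 (2.07 to 2.56). Nek11, a kinase of the DNA damage checkpoint, had 1103 in TKO and 4152 in WT, a ratio of 0.273 (0.256 to 0.292). Few of these reads told inclusion from skipping in Nek11 and Map3k5: Nek11 had 1 inclusion and 0 skipping reads in TKO and 0 of either in WT, and Map3k5 8 and 0 in TKO and 0 of either in WT. Mapk8ip3 (1.96) and Camk1d (1.90) came next above, and Map3k11 (0.562), Mapkapk3 (0.599), Mapk4 (0.656) and Camkk2 (0.722) next above Nek11. Camk1d had 35770 event reads in TKO and 19358 in WT, but at most 78 informative reads in any library. These ratios have no test, and the intervals cover counting error only. In bulk samples, fewer cells of a type and less RNA per cell cannot be told apart.

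The Camk2b events were listed unevenly. Of 9 events, 6 were listed in the TKO triple knock-down, 8 in TKO, 0 in each of the 4 knock-downs of WT cells and 7 in WT. Its most 3' listed exon, of 129 nucleotides (chr11:5976765-5976893, minus strand) stood at 0.29 in TKO, from 35 inclusion and 59 skipping reads, and 0.37 in WT, from 19 and 23, a difference under the 0.1 required.

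**Figure D5:**
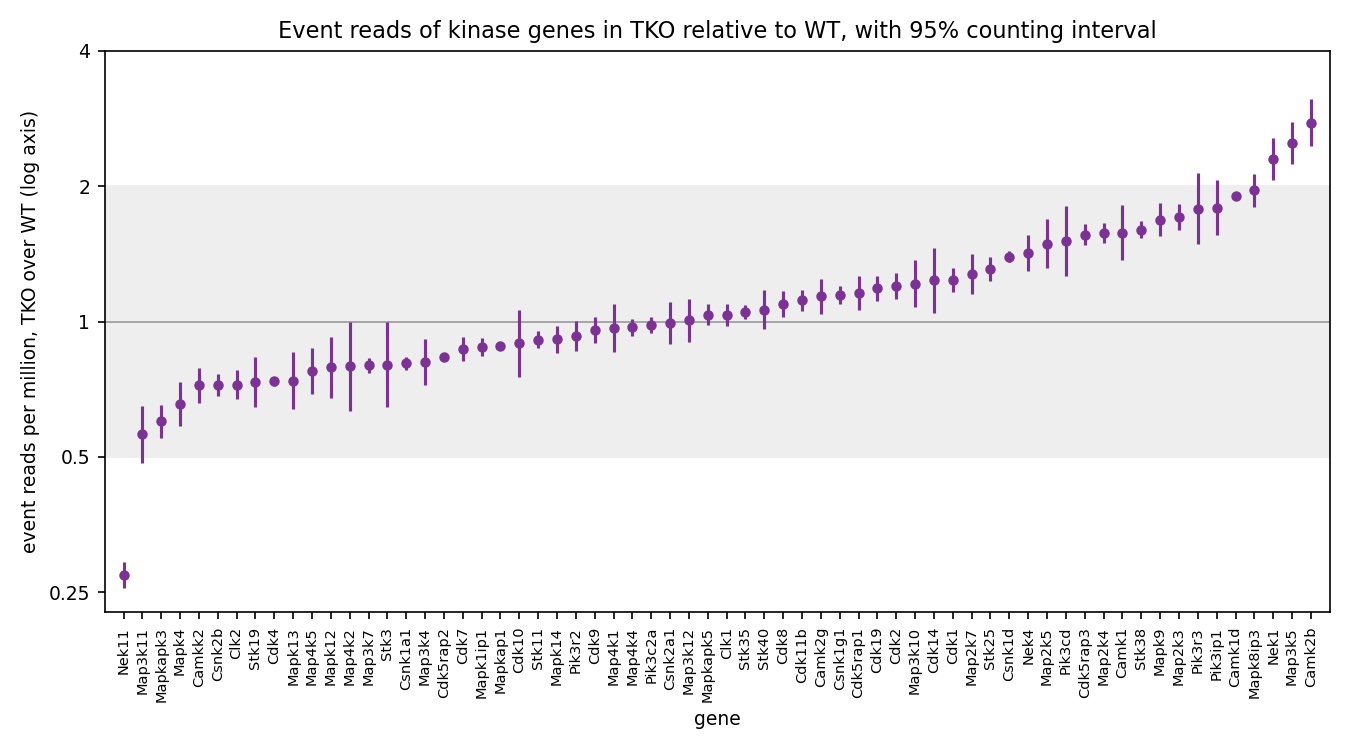
Ratio of RPM, TKO over WT (log axis), for 64 of the 65 kinase genes, with 95% counting intervals; the grey band spans ratios between 0.5 and 2. Nek11 lies alone below the band at 0.273, and Nek1, Map3k5 and Camk2b lie above it.

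Other kinases and partners of these pathways, taken from lists of 83 and 53 genes, were counted by the same rule. In TKO against WT, 5 of 91 events of the other kinases were higher and 3 lower (8.79%), and 3 of 37 events of the partners were higher and 0 lower (8.11%). These stand against 5.94% of the kinase-gene events and 4.57% of all events. For HP1alpha against WT, 1 of 70 events of the other kinases was higher and 9 lower (14.3%), and 0 of 31 events of the partners were higher and 5 lower (16.1%). The kinase-gene share was 12.8% and that of all events 11.8%. For HP1beta, the counts were 2 and 7 of 65 (13.8%) and 0 and 5 of 30 (16.7%), against 13.9% of the kinase-gene events and 11.8% of all events. For HP1gamma, they were 1 and 6 of 57 (12.3%) and 0 and 2 of 26 (7.69%), against 19.4% of the kinase-gene events and 11.4% of all events. In the WT triple knock-down against WT, 2 of 50 events of the other kinases were higher and 4 lower (12%), and 0 of 26 events of the partners were higher and 2 lower (7.69%). The kinase-gene share was 15.5% and that of all events 11.2%. In the TKO triple knock-down against TKO, 0 of 60 events of the other kinases were higher and 6 lower (10%), and 1 of 29 events of the partners was higher and 3 lower (13.8%). The kinase-gene share was 15.2% and that of all events 12.3%. Between the lines under the triple knock-down, none of 51 and none of 26 was called, and between the single knock-downs none of 66, 58 and 58 events of the other kinases and none of 30, 26 and 26 of the partners.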

How the data were processed

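The 14 RNA samples of 7 groups were deposited as 7 summaries, 1 per group, so per the labels the authors pooled the 2 replicates. Per the file headers these are MISO summaries of skipped exons; per the submitters' processing notes, TopHat2, Bowtie2 and the mm10 build were used, with versions not given in the sources used here. Levels were deposited as a fraction from 0 to 1, the authors' posterior mean of inclusion, with interval bounds and reads per class; every listed event had at least 100 reads, so lowly read genes are missing from a library's list. The 2 bisulfite and 6 MNase samples were not analysed here.

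Events were joined by coordinates and assigned to genes by span with the RefSeq GRCm38.p6 gene table. Inclusion-only and skipping-only reads of 2 libraries were compared by a two-sided Fisher's exact test, adjusted by Benjamini-Hochberg over all events with at least 20 such reads in each library, and a call needed an adjusted p of 0.05 or less and levels at least 0.1 apart (scipy 1.17.1, numpy 2.4.6, pandas 2.3.3). Dependence on the cell line used Zelen's exact test. In all, 10 comparisons were made. Per-event intervals and exact tests cover counting error only. The alternatives were other read minimums (10 and 50), a level difference of 0.2, separate deposited intervals, agreement of reads and level, and an expected odds ratio equal to the median of the exon's length class, of which there were 8.

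The text names the called event with the largest difference per gene and comparison, the most-read event per family, the 10 widest and 10 narrowest ranges, and the 5 largest and 5 smallest event-read ratios; other events are said to be chosen by value. The members, lists and tests were chosen with earlier results of these data known. Exon sequences, coding status and untranslated regions were not analysed here, for want of a genome and transcript models. Reads of near-identical gene copies, and of genes that overlap on opposite strands, cannot be told apart; 2 events in the span of Camkk2 lie on the strand opposite to it, inside P2rx4, and were not used for Camkk2. The events of 1 member gene are counted but not reported here by name or drawn by row.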

Additional observations from a re-analysis of the deposited data

Results flagged for a closer look

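The 63-nucleotide exon of Csnk1d stood out because its triple knock-down difference differed between the cell lines. Inclusion was 0.45 in the TKO triple knock-down and 0.60 in TKO, and 0.54 in the WT triple knock-down and 0.48 in WT. The log2 odds ratio of inclusion, knock-down over untransfected, was -1.03 in TKO and 0.19 in WT, a difference of -1.22 (adjusted p = 0.000340, Zelen's exact test over 4344 events). The siRNA doses differed between the lines, and the same platform difference lies within both contrasts; the part of either was not tested.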

How the results depend on the processing

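No paired analysis was possible because each group's replicates were pooled by the authors into 1 library, and for the same reason no replicate could be left out. Counts of called kinase-gene events within 1.5 times the main count were found for read minimums of 10 and 50, separate intervals, and agreement of reads and level, in the 7 comparisons with at least 1 call. With a level difference of 0.2, the calls were 0 for TKO against WT (6 at 0.1), 5 for HP1alpha (10), 5 for the WT triple knock-down (9) and 0 between the TKO and WT triple knock-downs (1). With the expected odds ratio set by exon length, they were 3 for TKO against WT, 6 for HP1alpha, 5 for HP1beta, 7 for HP1gamma (12 in the main count), 4 for the WT triple knock-down, 5 for the TKO triple knock-down and 0 between the TKO and WT triple knock-downs, against 4.34%, 8.99%, 8.67%, 8.62%, 7.99%, 8.56% and 0.492% of all events; the cause was not tested. Of 45 named calls, 44 were kept at 10 reads, 43 with separate intervals, 28 with a difference of 0.2 and 24 with the length setting; none changed direction. Depth limits the knock-downs most: the WT triple knock-down held 78 of the 133 events, against 126 in WT.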
